A study of Mus musculus with 17 samples.

Results

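The genes described here are 10 mouse genes of JAK-STAT signalling and of its SOCS feedback: the kinase gene Jak2, the transcription factor genes Stat3, Stat5a, Stat5b and Stat6, the feedback inhibitor genes Socs1, Socs2, Socs3 and Cish, and the target kinase gene Pim1. They were chosen by name as a signalling pathway, without reference to a threshold, and make up 10 of the 19938 genes that the arrays measured with a feature of a single gene. Where a gene had more than 1 feature, the brightest on average was taken. The study hybridised RNA of myeloid cells from female BALB/c mice to 17 arrays of the Affymetrix Mouse Gene 1.0 ST design. Spleens were pooled, CD11b+ cells were enriched with magnetic beads, and 2 subsets were sorted by flow cytometry. The Mo subset, monocytic cells with high Ly-6C and low Ly-6G, has 9 arrays. The PMN subset, polymorphonuclear cells with low Ly-6C and high Ly-6G, has 8 arrays. Control cells came from naive mice with no tumour (3 Mo and 4 PMN arrays). The other cells came from mice given 100000 Her-2/CT26 colon carcinoma cells under the skin, 3 weeks earlier (3 Mo and 2 PMN arrays) or 6 weeks earlier (3 Mo and 2 PMN arrays). Her-2/CT26 is a mouse colon carcinoma line that carries Her-2. Whether replicate arrays stand for separate pools is not stated in the labels, so the p-values rest on the spread between arrays of a group, which may be technical only.

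In JAK-STAT signalling, a cytokine binding its receptor activates receptor-bound Janus kinases, which phosphorylate STAT proteins that then move to the nucleus and switch on target genes. SOCS proteins and CIS, the product of Cish, are themselves induced by STATs and shut the receptor complex down, which makes a negative feedback loop. In myeloid cells, G-CSF and IL-6 signal largely through STAT3, GM-CSF through JAK2 and STAT5, and IL-4 and IL-13 through STAT6. The pathway is known for its part in the expansion of myeloid-derived suppressor cells in tumour-bearing mice. RNA levels do not report phosphorylation, which is how STAT activity is set.

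Stat5b (chromosome 11, 100780731 to 100859004 on GRCm38.p6), Stat5a (100859351 to 100885169) and Stat3 (100886806 to 100939594) lie side by side on chromosome 11, and Socs3 lies further along it (117966079 to 117970336). The remaining members lie apart: Cish on chromosome 9 (107296659 to 107302784), Stat6 and Socs2 on chromosome 10 (127642955 to 127660987 and 95383903 to 95417321), Socs1 on chromosome 16 (10783808 to 10785536), Pim1 on chromosome 17 (29490785 to 29496111) and Jak2 on chromosome 19 (29251803 to 29313095). These are the spans of the RefSeq genes, introns included.

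The STAT recognition motif TTCNNNGAA, which reads the same on both strands, was searched in RefSeq promoter windows of GRCm38.p6 that run from 250 bases before to 50 bases after each transcription start. Windows were given for 9 of the 10 members, 12 windows in all. Among these members it was found in the feedback genes Cish, with 2 copies, and Socs3, with 1 copy. Of all 32851 windows in the table, 8.3% held the motif and 0.457% held 2 or more copies. The STAT6 form TTCNNNNGAA was found in no member window and in 6.95% of all windows. A match describes letters in the window and is not a measured binding site. The stretches that hold the matches are shown 5′ to 3′ on the strand of the gene, with the motif in capitals, since both genes recur in the results below:
Cish: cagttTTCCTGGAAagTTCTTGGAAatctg
Socs3: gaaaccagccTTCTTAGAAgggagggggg
The Cish stretch is chr9:107296654-107296683 on the plus strand, where the first copy begins at the transcription start and the second copy at base 12 from it. The Socs3 stretch is chr11:117969502-117969530 on the minus strand, with its copy at positions -154 to -146 relative to the start. This stretch lies inside the Socs3 gene span given above (117966079 to 117970336). The start used for its window is therefore not the 5′ end of that span.

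Facts of the whole series touch all of these genes. Cell type markers that were not sorted on differed as the names of the subsets say. Mean log2 intensity of Ccr2, a chemokine receptor of monocytes, was 12.24 ± 0.13 in the 9 Mo arrays and 6.30 ± 0.22 in the 8 PMN arrays (SD). That of Cxcr2, a chemokine receptor of neutrophils, was 5.91 ± 0.54 and 12.55 ± 0.08. Of the sorted markers, Ly6g was 6.44 ± 0.97 in Mo arrays, with a highest value of 8.95, and 11.14 ± 1.17 in PMN arrays. The Ly-6C genes Ly6c1 and Ly6c2 had only features of several genes, so the Ly-6C gate was not checked. The Mo array of 3 weeks, replicate 1, stood apart from its group. On a scale over all genes where the naive mean is 0 and the 6-week mean is 1, it lay at 0.11, against 0.52 and 0.61 for the other Mo arrays of 3 weeks. Both PMN arrays of 3 weeks lay near the naive mean, at 0.03 and -0.03. Bright and dim genes moved apart at 6 weeks, and in Mo arrays already at 3 weeks. In PMN arrays at 6 weeks against naive, the median log2 change was 0.76 over the 745 genes with a mean level above 9 and up to 10, and -0.31 over the 6682 genes with a level above 6 and up to 7. In Mo arrays the corresponding medians were 0.32 and -0.24 at 6 weeks, and 0.29 and -0.18 at 3 weeks. Changes of the members are therefore given beside the median of all genes in the same 1-unit range of level, and again after quantile normalization over all 17 arrays, which gives every array the same distribution of values. In a bulk sample, fewer cells of a type and less RNA per cell cannot be told apart.

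Jak2, which encodes the kinase bound by the GM-CSF, G-CSF and erythropoietin receptors, read log2 intensities of 9.73, 9.83, 9.72 and 9.57 in naive PMN arrays, 9.73 and 9.65 at 3 weeks, and 10.04 and 10.06 at 6 weeks. Both 6-week arrays lay above all naive and 3-week arrays. On the deposited scale Jak2 rose by 0.34 ± 0.12 (SE) at 6 weeks against naive (limma with Benjamini-Hochberg adjustment over all genes, adjusted p = 0.0241), while after quantile normalization over all arrays it fell by 0.45 (adjusted p = 0.000132). The median change of all genes with a level above 9 and up to 10 was 0.76. In Mo arrays Jak2 read 9.29, 9.51 and 9.66 in naive mice, 9.66, 9.85 and 10.01 at 3 weeks, and 9.5, 9.81 and 9.80 at 6 weeks. The groups met or overlapped, and no Mo comparison of Jak2 passed on the deposited scale.

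Stat3 encodes the factor that carries G-CSF and IL-6 signals. In PMN arrays it read 10.06, 10.10, 9.89 and 9.72 in naive mice, 10.04 and 9.98 at 3 weeks, and 10.59 and 10.76 at 6 weeks. The naive and 3-week arrays overlapped and both 6-week arrays lay above them. Stat3 rose 1.66-fold at 6 weeks against naive, a log2 change of 0.73 ± 0.11 (adjusted p = 3.79e-05), and by 0.67 ± 0.13 against 3 weeks (adjusted p = 0.000463). It passed in each of the 6 fits that left out 1 PMN array of the naive and 6-week groups, with changes from 0.64 to 0.82. The median change of all genes with a level above 10 and up to 11 was 0.58 against naive, and after quantile normalization over all arrays the change of Stat3 was 0.05 (adjusted p = 0.665) against naive and -0.02 (adjusted p = 0.876) against 3 weeks.

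In Mo arrays Stat3 read 10.63, 10.73 and 10.83 in naive mice, 10.98, 11.17 and 11.12 at 3 weeks, and 10.83, 10.91 and 10.83 at 6 weeks. The 3-week arrays were the highest and did not overlap with the naive or the 6-week arrays. Stat3 rose by 0.36 ± 0.10 at 3 weeks (adjusted p = 0.0485), beside a median of 0.27 over genes of its level. After quantile normalization over all arrays the change was 0.16 (adjusted p = 0.321). The call was kept in 2 of 6 fits that left out 1 array, with adjusted p from 0.00924 to 0.26. At 6 weeks the change against naive was 0.13 ± 0.10 (adjusted p = 0.306).

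Stat6 encodes the factor that carries IL-4 and IL-13 signals. It read 9.55, 9.53, 9.34 and 9.33 in naive PMN arrays, 9.39 and 9.30 at 3 weeks, and 9.83 and 9.82 at 6 weeks. Again the 2 arrays of 6 weeks stood above all 6 others. On the deposited scale Stat6 rose by 0.39 ± 0.10 against naive (adjusted p = 0.00376) and by 0.48 ± 0.12 against 3 weeks (adjusted p = 0.00332), while after quantile normalization over all arrays it fell by 0.41 (adjusted p = 0.000559) and by 0.32 (adjusted p = 0.0124). Genes of its level had a median of 0.76 in both comparisons. In Mo arrays Stat6 read 10.21, 10.27 and 10.35 in naive mice, 10.38, 10.61 and 10.68 at 3 weeks, and 10.38, 10.49 and 10.33 at 6 weeks. All 3 arrays of 3 weeks lay above the naive ones. The 3-week change of 0.28 ± 0.10 did not pass (adjusted p = 0.0755), beside a median of 0.27 over genes of its level. After quantile normalization over all arrays it was 0.03 (adjusted p = 0.911).

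Stat5a and Stat5b encode the near-identical factors of GM-CSF and IL-3 signalling. Stat5b read 8.97, 9.12, 8.96 and 8.72 in naive PMN arrays, 9.06 and 9.07 at 3 weeks, and 9.25 and 9.33 at 6 weeks. On the deposited scale it rose by 0.34 ± 0.12 at 6 weeks against naive (adjusted p = 0.0224), and after quantile normalization over all arrays it fell by 0.44 (adjusted p = 0.000174). Genes of its level had a median of 0.76. Stat5a read 8.34, 8.40, 8.40 and 8.52, then 8.40 and 8.30, then 8.21 and 8.35 in the same groups. These groups overlapped, and the 6-week change was -0.14 ± 0.10 (adjusted p = 0.215) beside a median of 0.69 over genes of its level. Stat5a fell by 0.75 after quantile normalization over all arrays. The difference between the changes of Stat5a and Stat5b was not tested.

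In Mo arrays Stat5a read 8.93, 9.11 and 9.08 in naive mice, 9.08, 9.31 and 9.17 at 3 weeks, and 9.0, 8.79 and 8.92 at 6 weeks. Stat5b read 9.48, 9.57 and 9.69, then 9.56, 9.89 and 9.96, then 9.48, 9.53 and 9.68. For both genes the naive and 6-week arrays overlapped. Their 6-week changes against naive were -0.14 ± 0.09 and -0.02 ± 0.12, and neither passed (adjusted p = 0.212 and 0.893). Genes of their level had a median of 0.32, and after quantile normalization over all arrays Stat5a fell by 0.49 and Stat5b by 0.38.

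**Figure D1:**
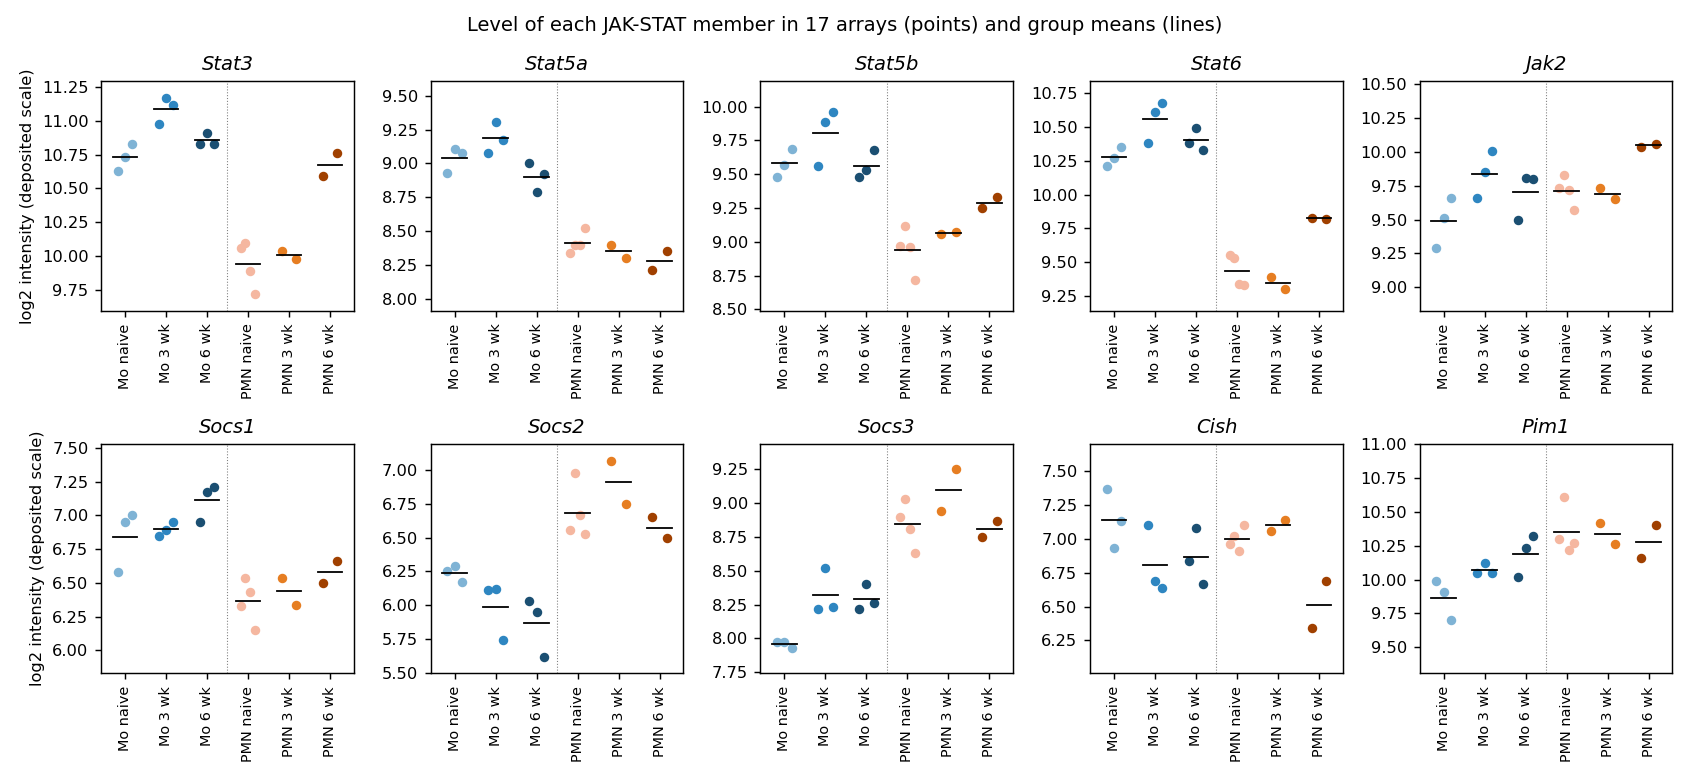
Log2 intensity on the deposited scale (vertical axis) of the 10 genes in 17 arrays, by subset and stage (horizontal axis), with points for arrays and lines for group means; every panel spans 1.7 log2 units. The 6-week PMN arrays lie above the other PMN arrays for Stat3 (10.59 and 10.76), Stat6 (9.83 and 9.82) and Jak2 (10.04 and 10.06) and below them for Cish (6.34 and 6.69).

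Socs3 encodes the inhibitor that limits G-CSF and IL-6 receptor signals. In Mo arrays it read 7.97, 7.97 and 7.93 in naive mice, 8.22, 8.52 and 8.23 at 3 weeks, and 8.22, 8.40 and 8.26 at 6 weeks. Every array from tumour-bearing mice lay above every naive array. Socs3 rose by 0.33 ± 0.11 at 6 weeks (adjusted p = 0.0274), which equals a 1.26-fold rise, beside a median of 0.34 over genes of its level. The 3-week change of 0.36 ± 0.11 did not pass (adjusted p = 0.0629), beside a median of 0.27 over genes of its level. The second Socs3 feature went the other way in the group means, with 6.91 ± 0.11 in naive and 6.79 ± 0.14 in 6-week arrays (SD, n = 3). With the mean of both features the 6-week change was 0.11 (adjusted p = 0.434). After quantile normalization over all arrays it was 0.02. In PMN arrays Socs3 read 8.90, 9.03, 8.81 and 8.63 in naive mice, 8.94 and 9.25 at 3 weeks, and 8.75 and 8.87 at 6 weeks. The 6-week arrays lay within the naive range, and the change was -0.03 ± 0.12 (adjusted p = 0.833) where genes of its level had a median of 0.69. It fell by 0.74 after quantile normalization over all arrays. The second feature had 7.46 ± 0.17 in naive (SD, n = 4) and 7.0 ± 0.06 in 6-week PMN arrays (SD, n = 2). With the mean of both features the change was -0.24 against naive (adjusted p = 0.08) and -0.50 against 3 weeks (adjusted p = 0.00665), where the feature used had -0.29 (adjusted p = 0.0884).

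Cish encodes CIS, an inhibitor of STAT5 signalling that STAT5 itself induces. It read 6.96, 7.02, 6.91 and 7.10 in naive PMN arrays, 7.06 and 7.14 at 3 weeks, and 6.34 and 6.69 at 6 weeks. Both 6-week arrays lay below all others, and they differed from each other by more than the naive arrays did. Cish fell by 0.48 ± 0.15 against naive, a 1.4-fold drop (adjusted p = 0.0104), and by 0.59 ± 0.17 against 3 weeks (adjusted p = 0.00956). Without the PMN array of 6 weeks, replicate 1, the change against naive was -0.31 (adjusted p = 0.179). The median change of all genes of its level was -0.31. After quantile normalization over all arrays Cish fell by 0.39 (adjusted p = 0.0257), whereas after centring each array on its median the change was -0.28 (adjusted p = 0.111). In Mo arrays Cish read 7.37, 6.93 and 7.13 in naive mice, 7.10, 6.69 and 6.64 at 3 weeks, and 6.84, 7.08 and 6.67 at 6 weeks. The groups overlapped and no Mo comparison of Cish passed on the deposited scale.

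Socs2, which encodes an inhibitor of growth hormone signalling, was among the dim features. In Mo arrays it read 6.25, 6.29 and 6.17 in naive mice, 6.11, 6.12 and 5.74 at 3 weeks, and 6.03, 5.95 and 5.62 at 6 weeks. The naive arrays were the highest. Socs2 fell by 0.37 ± 0.14 at 6 weeks (adjusted p = 0.0425), beside a median of -0.24 over genes of its level, and the change was -0.25 (adjusted p = 0.153) after centring and -0.14 after quantile normalization over all arrays. Without the Mo array of 6 weeks, replicate 3, it was -0.24 (adjusted p = 0.207), and it passed in 2 of the 6 fits that left out 1 array. Its second feature went from 6.36 ± 0.36 to 5.91 ± 0.23 (SD, n = 3). In PMN arrays Socs2 read 6.56, 6.98, 6.67 and 6.53 in naive mice, 7.07 and 6.75 at 3 weeks, and 6.65 and 6.50 at 6 weeks. No comparison of Socs2 passed there.

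Socs1, which encodes the inhibitor of interferon receptor signals, read 6.58, 6.95 and 7.0 in naive Mo arrays, 6.85, 6.89 and 6.95 at 3 weeks, and 6.95, 7.17 and 7.21 at 6 weeks. In PMN arrays it read 6.33, 6.54, 6.43 and 6.15 in naive mice, 6.54 and 6.34 at 3 weeks, and 6.50 and 6.66 at 6 weeks. The naive and 6-week arrays overlapped in both subsets. The 6-week changes of 0.27 ± 0.12 in Mo and 0.22 ± 0.13 in PMN did not pass on the deposited scale (adjusted p = 0.0803 and 0.144). Genes of its level had medians of -0.24 and -0.31, and Socs1 passed after centring in Mo (0.39, adjusted p = 0.0387) and in PMN (0.42, adjusted p = 0.028), and in PMN also after quantile normalization over all arrays (0.48, adjusted p = 0.00963).

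Pim1 encodes a serine/threonine kinase that STAT3 and STAT5 induce and that promotes survival. In Mo arrays it read 9.99, 9.91 and 9.70 in naive mice, 10.05, 10.12 and 10.05 at 3 weeks, and 10.02, 10.23 and 10.32 at 6 weeks. All arrays from tumour-bearing mice lay above the naive arrays, the closest by a small margin. Pim1 rose by 0.33 ± 0.12 at 6 weeks on the deposited scale (adjusted p = 0.032), beside a median of 0.28 over genes of its level, and the sign turned to -0.02 (adjusted p = 0.94) after quantile normalization over all arrays. In PMN arrays Pim1 read 10.30, 10.61, 10.22 and 10.27 in naive mice, 10.42 and 10.26 at 3 weeks, and 10.16 and 10.40 at 6 weeks. The groups overlapped and the 6-week change was -0.07 ± 0.12 (adjusted p = 0.636), beside 0.58 over genes of its level. It fell by 0.84 after quantile normalization over all arrays. Of the other PIM kinase genes, Pim3 fell by 0.31 in PMN arrays at 6 weeks (adjusted p = 0.0164), and Pim2 did not pass.

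In PMN arrays at 6 weeks against naive, 5 of 10 members passed (Stat3, Stat5b, Stat6 and Jak2 higher, Cish lower), where 65.4% of all genes passed. Against 3 weeks, 4 of 10 passed (Stat3, Stat6 and Jak2 higher, Cish lower), where 58.7% of all genes passed. In Mo arrays at 6 weeks against naive, 3 of 10 passed, where 46.2% of all genes passed. In Mo arrays at 3 weeks 1 of 10 passed, where 6.03% of all genes passed. Without the Mo array of 3 weeks, replicate 1, 6 of 10 passed at 3 weeks, where 44.7% of all genes passed: Stat3, Stat5b, Stat6, Jak2 and Socs3 were higher and Cish lower. No member passed between 3 and 6 weeks in Mo arrays, where limma called 7.51% of all genes. There 2 members had an unadjusted p under 0.05, as had 3639 of all 19938 genes. No member passed in PMN arrays at 3 weeks, where limma called 0.0% of all genes. There 0 members had an unadjusted p under 0.05, beside 374 of all 19938 genes. The median change of the members at 6 weeks was 0.09 in PMN and 0.13 in Mo arrays, beside medians of -0.18 and -0.09 over all genes. Most genes are dimmer than most members, so genes of like level are the closer measure. In PMN arrays these had medians of -0.31 for Socs1, Socs2 and Cish and 0.58 to 0.76 for the other members. Only Stat3, Socs1 and Socs2 lay above theirs. In Mo arrays the medians for the same genes were -0.24 and 0.28 to 0.34, and only Pim1 and Socs1 lay above theirs.

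**Figure D2:**
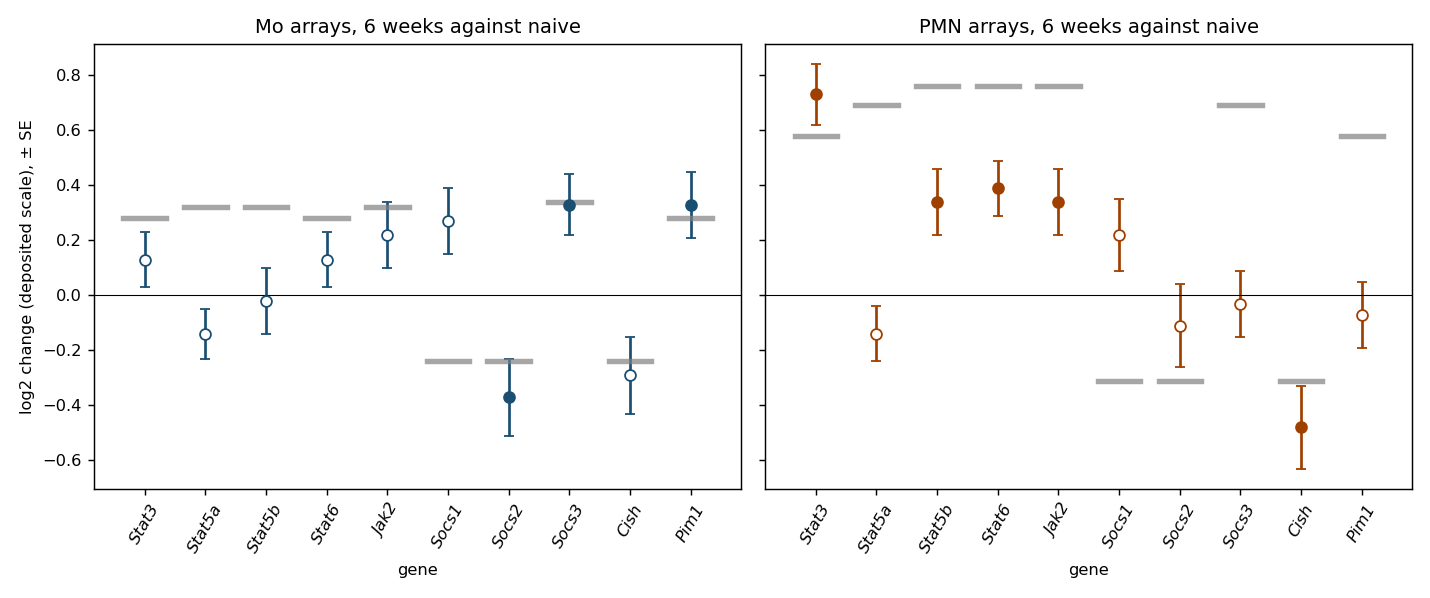
Log2 change at 6 weeks against naive with its standard error (vertical axis) for each gene (horizontal axis), in Mo and in PMN arrays; filled points passed at an adjusted p below 0.05, and grey bars mark the median change of all genes in the same 1-unit range of level. In PMN arrays the grey bars lie at 0.58 to 0.76 for 7 genes, above all of their points except that of Stat3 at 0.73.

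The direction of several members in PMN arrays at 6 weeks depended on how the arrays were scaled. Over all genes, 5075 rose and 7972 fell on the deposited scale, with a median change of -0.18. Centring each array on its median moved that median to 0.02, with 5916 genes higher and 3270 lower, and quantile normalization over all arrays moved it to -0.05, with 4287 higher and 5328 lower. Among the members 4 were higher and 1 lower on the deposited scale, where 25.5% of all genes were higher and 40.0% lower. After centring 5 members were higher and 0 lower, where 29.7% of all genes were higher and 16.4% lower. After quantile normalization over all arrays 8 members passed, 1 higher and 7 lower, where 48.2% of all genes passed, 21.5% higher and 26.7% lower. Quantile normalization assumes that the spread of levels is the same in every array, and the arrays differed in this: upper quartiles of intensity were 183 to 187 in the naive and 3-week PMN arrays and 197 to 202 at 6 weeks, where medians were 81.0 and 82.4 against 91.3 to 95.9. Whether this wider spread at 6 weeks came from the cells or from the handling of the arrays cannot be told apart with these groups. In Mo arrays at 6 weeks, 2 members were higher and 1 lower on the deposited scale, where 21.8% of all genes were higher and 24.4% lower. After centring 3 members were higher and 0 lower, where 25.3% of all genes were higher and 11.1% lower. After quantile normalization over all arrays 0 were higher and 2 lower, where 26.3% of all genes passed, 13.2% higher and 13.1% lower.

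**Figure D3:**
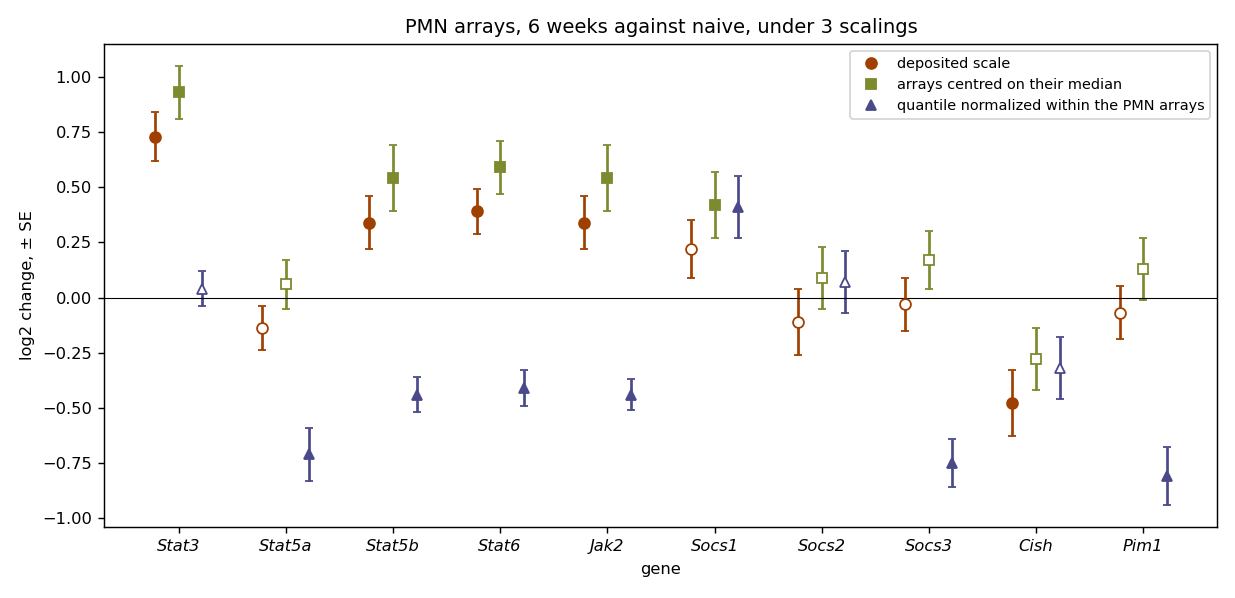
Log2 change with its standard error (vertical axis) of each gene (horizontal axis) in PMN arrays at 6 weeks against naive, on the deposited scale, after centring, and after quantile normalization within each subset; filled points passed at an adjusted p below 0.05. Jak2, Stat5b and Stat6 lie between 0.34 and 0.39 on the deposited scale and between -0.44 and -0.41 after quantile normalization, and Stat3 goes from 0.73 to near 0.

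The change in PMN arrays was also set against the change in Mo arrays within the same fit. At 6 weeks against naive, 1 of 10 members differed, where 17.5% of all genes differed. The change of Stat3 was 0.73 in PMN and 0.13 in Mo arrays, a difference of 0.61 ± 0.15 (adjusted p = 0.00964). Genes of its level had medians of 0.58 in PMN and 0.28 in Mo arrays. Between 3 and 6 weeks 3 of 10 members differed, where 29.2% of all genes differed. Stat3 changed by 0.67 in PMN and by -0.23 in Mo arrays, a difference of 0.90 ± 0.16 (adjusted p = 0.000663). Stat6 changed by 0.48 and -0.16, a difference of 0.63 ± 0.15 (adjusted p = 0.00543). Cish changed by -0.59 and 0.05, a difference of -0.64 ± 0.22 (adjusted p = 0.041). In PMN and Mo arrays, genes of like level had medians of 0.56 and 0.0 for Stat3, 0.76 and 0.0 for Stat6, and -0.33 and -0.05 for Cish. The medians thus lay further apart than the 2 changes of Stat6, and less far apart than those of Stat3 and Cish. None of these 4 differences passed after quantile normalization over all arrays, where 18.1% of all genes differed at 6 weeks against naive and 25.7% at 6 against 3 weeks. There the differences of Stat3 were 0.16 and 0.24, that of Stat6 turned to -0.11 and that of Cish was -0.55. Under that scaling the changes of Socs3 and Pim1 at 6 weeks against naive were lower in PMN than in Mo arrays, with differences of -0.76 (adjusted p = 0.00176) and -0.82 (adjusted p = 0.00355). No member differed at 3 weeks against naive, where limma called 0.00502% of all genes. There 4 members had an unadjusted p under 0.05, as had 3312 of all 19938 genes.

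Levels of the 2 subsets are set side by side without a test, since exact values were shared far more often by arrays of 1 subset (a median of 942.5 for Mo pairs and 251 for PMN pairs) than across subsets (146), and the subsets were taken as normalized apart. On the deposited scale Stat3 lay between 10.63 and 11.17 in Mo arrays and between 9.72 and 10.76 in PMN arrays. Stat6 lay between 10.21 and 10.68 in the former and between 9.30 and 9.83 in the latter, without overlap. Socs3 lay between 7.93 and 8.52 in Mo arrays and higher in PMN arrays, between 8.63 and 9.25, also without overlap. After quantile normalization over all arrays the subsets overlapped for Stat6, at 9.72 to 10.13 in Mo and 9.65 to 10.14 in PMN arrays. For Socs3 they stayed apart, at 7.73 to 8.06 and 8.67 to 9.91. The share of all genes without overlap is not given here. The mean was higher in Mo arrays for 6 of 10 members on the deposited scale and for 2 of 10 after quantile normalization over all arrays, where the naive means of Stat3 were 10.47 in Mo and 10.57 in PMN arrays.

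Over the 17 arrays, with each subset's mean subtracted, Stat3 varied with Stat6 (Pearson r = 0.93), Jak2 (r = 0.83) and Stat5b (r = 0.82), and opposite to Cish (r = -0.71). With Stat5a it had r = -0.04. These are descriptions: the arrays share their groups, and bright genes as a whole were higher at 6 weeks. The genes most like Stat3 by this measure were Sidt2 (r = 0.972), Rassf5 (r = 0.965) and Rubcnl (r = 0.963). Sidt2 was also among the nearest to Stat6 (r = 0.958), after Bsdc1 (r = 0.96). The nearest gene to Jak2 was Dmxl1 (r = 0.947), to Stat5b Susd6 (r = 0.935), to Cish Wif1 (r = 0.92), to Socs2 Tmem42 (r = 0.902) and to Stat5a Hfe (r = 0.889). Those of Socs1, Pim1 and Socs3 were lower, at 0.866 for Tinf2, 0.82 for Bola2 and 0.818 for Tgfbi.

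Other genes of the pathway are given by lists that were drawn up with earlier results of these data known. Of the other Janus kinase and STAT genes, 4 are described here. In PMN arrays at 6 weeks against naive, 3 of 4 rose and 0 fell, where 25.5% of all genes rose and 40.0% fell, and after quantile normalization over all arrays 2 were higher and 1 lower. Those that rose were Stat2, a factor of interferon signalling (0.69, adjusted p = 6.22e-05), Tyk2, a kinase of interferon and IL-12 receptors (0.37), and Stat4, the IL-12 factor (0.35). With that normalization Stat2 no longer passed, at 0.27 (adjusted p = 0.0732), whereas Tyk2 and Stat4 passed at 0.61 and 0.60 and Jak1 fell by 0.36. In Mo arrays 1 of 4 rose and 3 fell, where 21.8% of all genes rose and 24.4% fell. Stat4 fell by 0.86, Stat2 fell by 0.83 and Jak1 fell by 0.30, while Tyk2 rose by 0.39 (0.01 after quantile normalization over all arrays). The difference between PMN and Mo changes passed for 3 of these 4 genes, on the deposited scale and after quantile normalization over all arrays, all with the higher value in PMN. Over all genes this difference passed for 17.5% and 18.1%.

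Of 29 measured receptor genes, 11 rose and 9 fell in PMN arrays at 6 weeks, where 25.5% of all genes rose and 40.0% fell. Quantile normalization over all arrays gave 1 higher and 10 lower, where 21.5% of all genes were higher and 26.7% lower. Csf2rb2, a beta chain of the IL-3 receptor, rose by 1.11 (0.60 after quantile normalization over all arrays). Csf2rb, the beta chain shared by the IL-3, IL-5 and GM-CSF receptors, rose by 0.78 (0.09). Il10rb, a chain of the IL-10 receptor, rose by 0.85 (0.04). The G-CSF receptor gene Csf3r fell by 0.56. In Mo arrays 5 receptor genes rose and 8 fell, where 21.8% of all genes rose and 24.4% fell. Il2rb and Il7r, receptor chains known from lymphocytes, fell by 1.31 and 1.17, and Il10ra, the other IL-10 receptor chain, fell by 1.27. At 3 weeks Csf2rb and Csf2rb2 were higher in Mo arrays by 0.66 (adjusted p = 0.0155) and 0.60 (adjusted p = 0.0249) on the deposited scale. Csf2rb passed at 0.40 (adjusted p = 0.0447) and Csf2rb2 did not, at 0.33 (adjusted p = 0.0943), after quantile normalization over all arrays. Of 22 measured ligand genes, 0 rose on the deposited scale at 6 weeks, while 11 fell in PMN and 7 in Mo arrays, where 40.0% and 24.4% of all genes fell. The same counts were 1 higher and 7 lower in PMN arrays, and 0 higher and 2 lower in Mo arrays, after that normalization, where 26.7% and 13.1% of all genes were lower.

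Of 16 other inhibitors of the pathway, 10 rose and 2 fell in PMN arrays at 6 weeks, where 25.5% of all genes rose and 40.0% fell. With quantile normalization over all arrays 6 were higher and 6 lower, where 21.5% of all genes were higher and 26.7% lower. The leading ones were Cbl, a ubiquitin ligase (1.22), Socs4 (1.17) and Ptpn11, the phosphatase SHP2 (1.13). These 3 also passed as higher after quantile normalization over all arrays, at 0.46, 1.33 and 0.47. In Mo arrays 6 rose and 2 fell, where 21.8% of all genes rose and 24.4% fell, and after quantile normalization over all arrays 0 were higher and 4 lower, where 13.2% and 13.1% of all genes were. Usp18, an interferon-induced inhibitor, fell by 1.58 and Ptprc, the phosphatase CD45, fell by 0.67, while Ptpn2, a STAT phosphatase, rose by 0.60 (0.26, adjusted p = 0.12, after quantile normalization over all arrays).

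Genes known as STAT targets did not share a direction. Of 20 STAT3 target genes 9 rose and 7 fell in PMN arrays at 6 weeks, with a median of 0.0, where 25.5% of all genes rose and 40.0% fell. In Mo arrays 6 rose and 4 fell, where 21.8% and 24.4% of all genes did. Of the 20, 2 were higher and 9 lower in PMN arrays, and 4 higher and 6 lower in Mo arrays, after quantile normalization over all arrays. Over all genes that normalization gave 21.5% higher and 26.7% lower in PMN, and 13.2% higher and 13.1% lower in Mo arrays. In Mo arrays S100a8 and S100a9, the calprotectin genes, rose by 4.16 and 3.88. In PMN arrays Fgl2 fell by 1.09, Birc5, a survival and division gene, rose by 1.03, and Hif1a, the hypoxia factor, rose by 0.91 (0.16 after quantile normalization over all arrays). Of 11 measured STAT5 target genes 5 rose and 3 fell in PMN and 4 rose and 1 fell in Mo arrays, with Ccnd3, a cyclin, up by 1.77 in PMN and 0.63 in Mo arrays (1.0 and 0.27 after quantile normalization over all arrays). With that normalization 3 were higher and 2 lower in PMN, and 2 higher and 2 lower in Mo arrays. The shares of all genes given beside the STAT3 targets apply to the STAT5 targets, and to the STAT6 targets below. Of 14 STAT6 target genes 2 rose and 4 fell in PMN and 3 rose and 5 fell in Mo arrays, against 1 higher and 3 lower in each subset after quantile normalization over all arrays. Among them Chil3, which encodes a chitinase-like protein, rose by 3.08 and 3.95. By contrast Arg1, arginase, fell by 0.44 in PMN arrays and did not pass in Mo arrays.

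**Figure D4:**
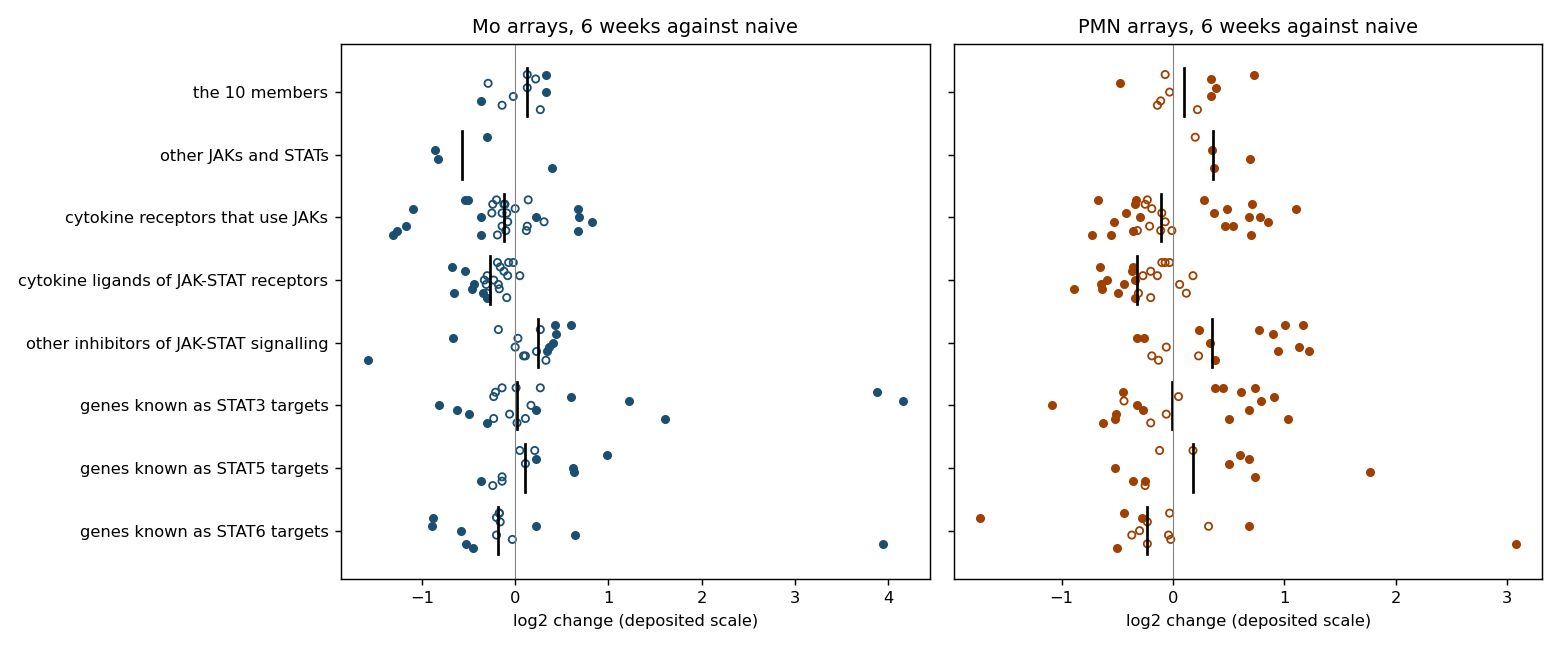
Log2 change at 6 weeks against naive on the deposited scale (horizontal axis) of each measured gene of the members and of 7 pathway lists (vertical axis), in Mo and in PMN arrays; filled points passed at an adjusted p below 0.05 and vertical bars mark the list's median. The members have a median of 0.13 in Mo and 0.09 in PMN arrays (-0.14 and -0.42 after quantile normalization over all arrays), and the other inhibitors 0.25 and 0.35 (-0.08 and 0.03 after quantile normalization over all arrays).

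Markers of other cells and states moved at the same stage as the members. In PMN arrays the summed intensity of 7 measured B cell markers of 8 was 2471 to 2724 in naive and 877 to 889 in 6-week arrays, and that of all 8 granulocytic markers was 19630 to 23149 and 44477 to 47902. The granulocytic markers did not all rise. Camp, Ly6g, Ltf and Mmp9 rose by 2.57, 2.43, 1.33 and 1.12, while Csf3r fell by 0.56 and Cxcr2 changed by -0.05. In Mo arrays the sum of all 6 early granulocyte markers was 538 to 692 in naive and 4774 to 12836 in 6-week arrays, and that of 9 measured T and NK cell markers of 10 was 1642 to 2500 and 860 to 961. Of 12 proliferation genes, 11 rose in PMN and 12 in Mo arrays at 6 weeks, where 25.5% and 21.8% of all genes rose. Of 13 measured immediate early genes, which respond to handling of cells as well as to signals, 9 fell in PMN, and 7 fell and 1 rose in Mo arrays. Over all genes 40.0% fell in PMN, and 24.4% fell and 21.8% rose in Mo arrays. The part of these cells and states in the changes of the members was not tested.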

How the data were processed

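The table deposited by the authors holds 1 linear intensity per feature and array, made with RMA, per the submitters' processing notes. RMA subtracts background, quantile normalizes and summarises probes, and it usually ends in log2 values. The deposited numbers ran from 9.76 to 32095, so log2 was taken. No version or setting is given in the sources used here. Of 35557 features, 21789 carried 1 gene symbol in the platform annotation and were used, 1621 carried several and 12147 carried none. Symbols were checked through Entrez numbers against RefSeq, where 21698 features matched. For the 999 genes with several features the one with the highest mean was used.

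In R 4.3.3, limma 3.58.1 fitted 1 model with 6 group means over 19938 genes and 17 arrays, followed by contrasts and eBayes, without a filter or covariate. Tests were two-sided, with Benjamini-Hochberg adjustment over all genes of a comparison and a threshold of 0.05. The script was tested on simulated data. Array number limits the precision. No 2 arrays were identical. The labels do not say that a replicate number marks a shared animal or day. Deviations from the group means of same-numbered Mo arrays correlated in all 3 pairs between 3 and 6 weeks (r = 0.63, 0.28 and 0.47), so the numbers were taken to pair the arrays of that comparison, where the replicate block changed no member's call. Against naive they correlated for replicates 1 and 3 (0.46 to 0.61) and not for replicate 2 (-0.09 and -0.04), and in PMN arrays for none (-0.46 to 0.02). The members and gene lists were chosen with earlier results of these data known. All 10 members are named, and of each list up to the 3 largest changes that passed. Jak1, Arg1 and Csf3r at 6 weeks were named beside these after their values were seen. Alternatives covered scaling, a floor at log2 6, leaving out the dimmest 25% of genes, array weights, a replicate block (over all arrays and, added after seeing the data, over Mo arrays alone), variance settings, the mean of features, each subset alone and each array left out. Promoter windows are those of RefSeq. Protein sequences were not used here. A gene list and a gene were left out of the text and are not reported here.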

Additional observations from a re-analysis of the deposited data

Results flagged for a closer look

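In 4 cases the change of a member differed between the PMN and Mo subsets in a test of the difference itself. These were Stat3 at 6 weeks against naive (a difference of 0.61 on the log2 scale) and, at 6 against 3 weeks, Stat3 (0.90), Stat6 (0.63) and Cish (-0.64). Stat3 at 6 weeks against naive passed in 11 of 12 fits that left out 1 array, and not without the PMN array of 6 weeks, replicate 2 (0.52, adjusted p = 0.0751 in limma). At 6 against 3 weeks Stat3 and Stat6 passed in all 10 such fits and Cish in 3 of 10. None of the 4 passed after quantile normalization over all arrays. The medians of genes of like level, given with these differences above, also differed between the subsets. The 10 members were also checked for an array far from the others in the group of 4 naive PMN arrays, and 0 were found.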

How the results depend on the processing

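Of 1580 alternative values for 90 changes of members, 1390 kept direction and side of the threshold, 68 no longer passed, 104 passed newly and 18 reversed, and 95 signs turned without passing in either fit. All 18 reversals came from quantile normalization, over all arrays or within each subset. Quantile normalization within each subset was added after seeing the data. Where both are given, the value over all arrays comes first. They were Pim1 in Mo at 6 weeks (-0.02 under both), PMN at 6 weeks against naive for Stat5b (-0.44), Stat6 (-0.41) and Jak2 (-0.45 and -0.44), PMN at 6 against 3 weeks for Stat3 (-0.02), Stat5b (-0.55 and -0.56), Stat6 (-0.32) and Jak2 (-0.40), and the PMN minus Mo difference of Stat6 at 6 against 3 weeks (-0.11 under both). The cause was not tested.

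Counts of members that passed moved as follows. In Mo at 3 weeks (1), centring gave 4, array weights 8 and the replicate block 3 (4 over Mo arrays alone), while both quantile normalizations, the floor at log2 6, trend and robust settings and the subset alone gave 0. In Mo at 6 weeks (3), array weights gave 7, the replicate block over Mo arrays alone 5, and the mean of features and the subset alone 1. In Mo at 6 against 3 weeks (0), the quantile normalizations gave 2 and 3 and array weights 7. Quantile normalization over all arrays gave 8 in PMN at 6 weeks against naive (5) and 7 against 3 weeks (4). For the PMN minus Mo difference, array weights gave 6 at 3 weeks against naive (0). At 6 weeks against naive (1), both quantile normalizations gave 2, array weights 5 and the replicate block 2. At 6 against 3 weeks (3), array weights gave 6 and the replicate block 5. Members with the higher mean in Mo went from 6 to 2 under quantile normalization over all arrays. Leaving out 1 array gave 0 to 6 in Mo at 3 weeks (6 without the 3-week replicate 1), 0 to 5 in Mo at 6 weeks (5 without the 6-week replicate 1), 0 to 1 in Mo at 6 against 3 weeks, 2 to 5 in PMN at 6 weeks against naive and 2 to 4 against 3 weeks (2 without the 6-week replicate 1 in each). For the differences it gave 0 to 2 at 3 weeks, 0 to 1 at 6 weeks against naive and 2 to 5 at 6 against 3 weeks.

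By member, Stat3 and Stat6 in PMN at 6 weeks, against naive and against 3 weeks, passed in all fits that left out 1 PMN array. Cish passed in 5 of 6 against naive and 2 of 4 against 3 weeks. Jak2 and Stat5b in PMN at 6 weeks against naive passed in 3 of 6, Socs3 in Mo at 6 weeks in 1 of 6, and Socs2 and Pim1 there in 2 of 6. Jak2 at 6 against 3 weeks in PMN passed in 0 of 4, with adjusted p from 0.0804 to 0.156.

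Over all genes, calls in Mo at 3 weeks became 16 to 8911 with 1 array left out. Higher and lower calls were 1036 and 166, and 1733 and 46 after centring. Calls in Mo at 6 weeks became 5244 with quantile normalization over all arrays and 4475 to 10640 with 1 array left out. The split of 4341 higher and 4863 lower became 5053 and 2217 after centring. Calls in Mo at 6 against 3 weeks became 877 with the subset alone and 2803 without the 6-week replicate 1. The 13047 and 11694 calls in PMN at 6 weeks became 8528 and 7176 within subsets and 9186 and 7725 after centring, which split the second into 5419 higher and 2306 lower against 4726 and 6968. Against 3 weeks the count was 7627 without the 3-week replicate 2. The differences at 6 weeks, against naive and against 3 weeks, had 3487 and 5818 calls, 6840 and 11682 with array weights, and 2098 to 3683 and 3641 to 9334 with 1 array left out. The second had 3870 within subsets. Their splits of 2197 higher and 1290 lower, and 3445 and 2373, became 2041 and 553, and 3977 and 519, after centring. The difference at 3 weeks had 3242 calls without the Mo 3-week replicate 1. At 3 weeks against naive PMN arrays had 0 calls in limma, with 374 genes at an unadjusted p under 0.05, and 13 calls with the floor.

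Against naive and in PMN arrays the numbers were not taken as pairs, although 6 of 9 Mo arrays correlated best with their own number in both other groups. Between 3 and 6 weeks in Mo, where they were, the replicate block gave 0 members and 1691 genes, and over Mo arrays alone, a fit added after seeing the data, 0 and 2167. Against naive it added Stat6, Jak2 and Socs3 at 3 weeks and Jak2 and Socs1 at 6 weeks. The replicate block moved no other count of members by over 1.5 times. With 2 arrays in the later PMN groups, leaving 1 out assumes that the lone array varies like the other groups.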
